A study of Mus musculus with 38 samples.

Results

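The small RNAs of sperm from mice kept on a control diet throughout life were described without a contrast to other diets. The set held 10 of the 38 mice sequenced, chosen as the mice that the study's own sample table places in the CTCT group, in which the dams received the control diet (20% protein) during pregnancy and lactation and the male offspring stayed on it after weaning at 21 days. 9 of the 10 also carry CTCT in their sample label, while mouse 47I2 is labelled CTPR (control diet before weaning, 8% protein after it) and its littermate 47I1 has the reverse pair of assignments. All 10 were C57BL6/J males from 10 different litters, killed at 11 to 13 weeks, and each library was made from the small RNA fraction of sperm collected from the epididymis, size-selected for inserts of 13 to 73 bp. Each mouse is 1 biological sample, and a mouse is named below by its code.

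Sequencing gave between 10709017 and 11802003 cleaned reads per mouse, of which 41.7% to 59.3% matched the genome. The lowest share belonged to mouse 02A6 and the highest to mouse 35F2. These shares use the study's own total of genome-matched reads, which in mouse 35F2 is 613236 reads below the sum of its class totals. Counts were expressed as a percentage, or as reads per 1000000 (RPM), of the summed genome-matched class totals of the same mouse, which ranged from 4464718 to 7319908 reads. Mature mouse sperm is transcriptionally quiet and carries several kinds of short RNA. miRNAs are cut from hairpin precursors and pair with messenger RNAs through their seed, bases 2 to 8. tRNA fragments are cleaved from tRNAs, in sperm mostly from the 5′ part, and part of the miRNA and tRNA fragment load is acquired during transit through the epididymis. piRNAs are made in the testis from long precursor transcripts and guide PIWI proteins, and snoRNAs guide the chemical modification of ribosomal RNA and other RNAs.

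The miRNA results below turn on a few hairpins. RefSeq (GRCm38.p6) sequences of 1 mature arm of each are printed 5′ to 3′ with the seed in capitals, to show which of the leading miRNAs share a seed and how far miR-3535 differs from the rest. The tables count reads per hairpin and do not separate its arms. Of 517 hairpins with reads in any of the 10 mice, 428 had a mature sequence in the RefSeq table.
miR-148a-3p, chr6:51269829-51269850, minus strand: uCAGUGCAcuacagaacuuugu
miR-10a-5p, chr11:96317186-96317208, plus strand: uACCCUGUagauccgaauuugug
miR-10b-5p, chr2:74726074-74726096, plus strand: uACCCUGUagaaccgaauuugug
miR-99a-5p, chr16:77598940-77598961, plus strand: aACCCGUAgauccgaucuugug
miR-21a-5p, chr11:86584120-86584141, minus strand: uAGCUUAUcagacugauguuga
let-7g-5p, chr9:106178846-106178867, plus strand: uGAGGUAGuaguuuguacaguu
let-7f-5p, chrX:151912353-151912374, plus strand, and chr13:48537889-48537910, minus strand: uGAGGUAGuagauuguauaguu
miR-30a-5p, chr1:23272274-23272295, plus strand: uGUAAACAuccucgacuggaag
miR-3535, chr1:86352062-86352087, minus strand: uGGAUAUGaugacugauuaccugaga

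miR-10a-5p and miR-10b-5p share the seed ACCCUGU, and let-7g-5p and let-7f-5p share GAGGUAG. The other 5 sequences each have a seed of their own. let-7f-5p stands at 2 places in the genome, because the hairpins let-7f-1 and let-7f-2 give the same 5′ arm.

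3 libraries stood apart from the rest. In mouse 02A6 the Rfam-DNA row held 27.4% and the ensembl lincRNA row 16.1% of reads, against highest values of 11.6% and 4.29% in the other 9 mice, and its snoRNA row held 6.30% against a lowest value of 14.5% in the others. Mouse 35F2 was the only one whose class totals summed to more than its genome-matched reads, by 613236 reads; it had 664233 snRNA reads against at most 169139 elsewhere, 306251 misc_RNA reads against at most 19374, and 31017 sense_overlapping reads against at most 26. Mouse 07C3 had the lowest miRBase miRNA (0.158%) and piRNA (1.52%) shares. Shares, neighbouring classes and correlations that rest on these mice are also given without 1 or more of them where they are described.

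snoRNA was the most abundant class, at 27.2% ± 12.4 of genome-matched reads (SD, n = 10 mice). It was followed by reads without annotation (11.7% ± 2.50), the Rfam-DNA row (11.7% ± 5.81), piRNA (10.6% ± 5.49), tRNA (9.68% ± 4.34) and the ensembl processed_transcript row (9.16% ± 3.60). lincRNA (4.67% ± 4.06), miRNA (3.61% ± 1.54, miRBase and ensembl rows together), mitochondrial tRNA (3.01% ± 1.51), snRNA (2.66% ± 2.33), rRNA (2.10% ± 0.794) and mitochondrial rRNA (1.29% ± 0.587) were scarcer. The order of neighbours was not resolved: none of the 11 neighbouring pairs (0%) passed the exact two-sided sign-flip permutation test on the within-mouse log2 ratio after Benjamini-Hochberg adjustment, and 2 of 11 had an unadjusted p under 0.05. snoRNA exceeded the unannotated reads in 9 of 10 mice, by 1.05 ± 0.959 on the log2 scale (exact permutation, adjusted p = 0.150). Without mouse 02A6 the classes were ranked again, so some neighbours changed, and 2 of 11 neighbouring pairs passed. snoRNA exceeded unannotated reads (log2 ratio 1.26 ± 0.729, 9 of 9 mice, exact permutation, adjusted p = 0.0430). Leaving out mouse 02A6 was chosen after seeing the data, and it was the only mouse in which snoRNA did not exceed unannotated reads. No conclusion on this pair is therefore drawn from the test over 9 mice. tRNA exceeded miRNA (1.16 ± 0.654, 8 of 9 mice, exact permutation, adjusted p = 0.0430), a pair that was not tested over the 10 mice.

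**Figure D1:**
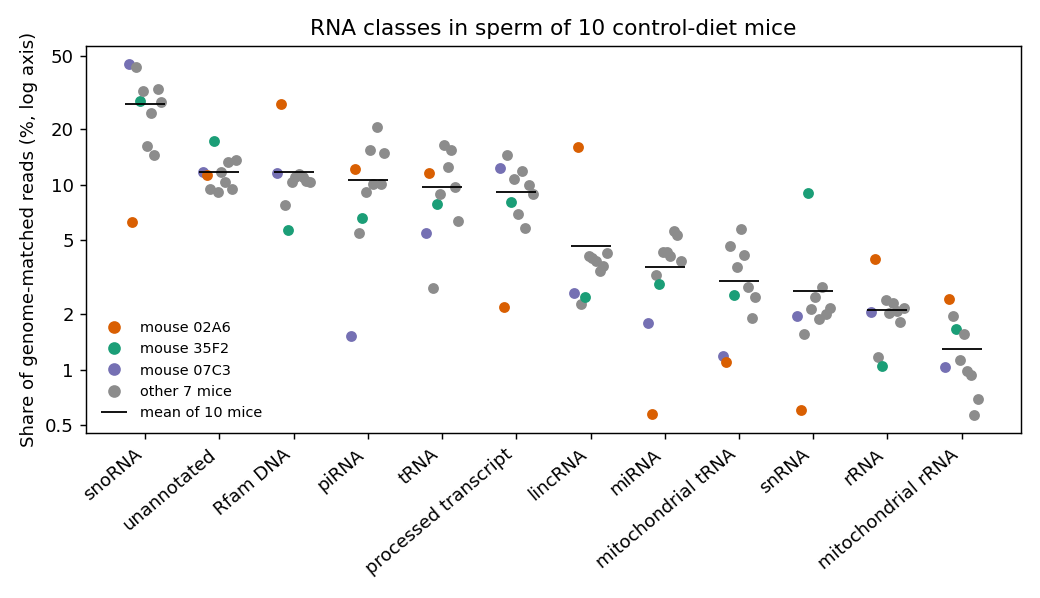
Share of genome-matched reads (%, log axis) of 12 RNA classes in the 10 control-diet mice; each point is 1 mouse and each bar the mean. Mouse 02A6 is lowest for snoRNA (6.30%) and highest for Rfam DNA (27.4%) and lincRNA (16.1%), mouse 35F2 highest for snRNA (9.07%), and mouse 07C3 lowest for piRNA (1.52%).

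Mice differed in which class led. The ensembl snoRNA row was the largest in 7 mice, and Rfam-DNA (02A6), tRNA (45L3) and piRNA (47I2) led in 1 mouse each. The ensembl snoRNA row ranged from 6.30% through a median of 27.8% to 45.3% in mouse 07C3. piRNA ranged from 1.52% through a median of 10.1% to 20.5% in mouse 47I2. tRNA ran from 2.75% in mouse 09H7 through a median of 9.30% to 16.4% in mouse 45L3. The 3 largest class rows of a mouse together held 48.1% to 69.4% of its reads and the 6 largest 76.2% to 89.1%. Without mice 02A6, 35F2 and 07C3, the CV (SD as a percentage of the mean) of lincRNA was 18.5% instead of 87.0%, of Rfam-DNA 11.8% instead of 49.6% and of snRNA 18.7% instead of 87.3%, while the CV of tRNA was 47.4% against 44.8%.

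Among the ensembl and Rfam rows, which the files give as totals with no members, the 10 largest were snoRNA (27.1%), Rfam-DNA, processed_transcript, lincRNA, Mt_tRNA, snRNA, ensembl miRNA (2.10% ± 0.837), Rfam-rRNA (1.46% ± 0.599), Mt_rRNA and Rfam-mRNA (1.02% ± 0.620). Over the 24 class rows with a mean of at least 100 RPM, dedicated databases and unannotated reads included, the CV was lowest for the unannotated reads (21.3%) and for scaRNA, guides for modification of spliceosomal RNA, at 0.0149% ± 0.00523 of reads (CV 35.1%). It was highest for Rfam-other_RNA (315%) and sense_overlapping (314%), which in mouse 35F2 reached 0.150% and 0.424% and in each of the other 9 mice at most 0.000134% and 0.000515%. The spread of these 2 rows is thus that of 1 mouse.

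miRBase miRNA reads made up 1.51% ± 1.10 of genome-matched reads, from 0.158% in mouse 07C3 through a median of 1.37% to 3.80% in mouse 47I2. Per mouse, 180 to 362 hairpins had reads, 124 of the 517 hairpins had reads in all 10 mice, and those 124 held 95.7% of all miRNA reads. 119 hairpins had reads in a single mouse and held 0.0201% of the reads.

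mir-148a was the leading hairpin, at 3301 RPM ± 2556 (SD, n = 10). Its level was 162 RPM in mouse 07C3 and 333 RPM in mouse 02A6, with a median of 3217 RPM and a highest value of 8301 RPM in mouse 47I2, and it held 10.4% to 25.4% of the miRNA reads of a mouse. It ranked first in 8 of the 10 mice. mir-143, a hairpin abundant in smooth muscle, followed at 1366 RPM ± 1060 (lowest 55.9, median 1296, highest 3571). The next abundant hairpins were mir-3535 (741 RPM ± 322), mir-10a (630 ± 449), mir-21a (620 ± 508), mir-99a (492 ± 386), let-7g (478 ± 387), mir-10b (448 ± 311), let-7f-2 (386 ± 395) and mir-30a (372 ± 296). 6 hairpins were among the 10 most abundant of every mouse. For each of these 10 except mir-3535, mouse 07C3 was lowest and mouse 47I2 highest, with ranges from 25.2-fold (mir-10a) to 98.2-fold (mir-30a).

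Of the 10 leading hairpins, several lie within host genes on the same strand (GENCODE M21). mir-21a (chr11:86584067-86584158, minus strand) overlaps an exon of the protein-coding gene Vmp1. let-7g (chr9:106178840-106178927) lies in an intron of Wdr82, let-7f-2 (chrX:151912346-151912428) in an intron of the ubiquitin ligase gene Huwe1, mir-10b (chr2:74726070-74726137) in introns of the homeobox genes Hoxd3 and Hoxd4, and mir-99a (chr16:77598936-77599000) in an intron of the noncoding Mir99ahg. mir-148a, mir-10a and mir-30a overlapped no other gene on their strand.

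mir-3535 did not follow the other hairpins. Its level ran from 120 RPM in mouse 02A6 through a median of 779 RPM to 1277 RPM in mouse 09H7, a 10.6-fold range, and it ranked first in mice 07C3 and 09H7. It held 29.0% of the miRNA reads of mouse 07C3 and 1.73% of those of mouse 47I2. The log2 ratio of mir-3535 to mir-148a went from -3.66 in mouse 47I2 to 1.48 in mouse 07C3. Among the 60 most abundant hairpins, the Pearson r of a hairpin's log2 RPM with that of all other hairpins together was 0.97 at the median and above 0.9 for 44, and it was 0.45 for mir-3535 against at least 0.75 for the other 59; these values describe 10 mice and share the miRNA total.

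mir-3535 and mir-677 were the only 2 of the 60 hairpins that overlapped a snoRNA gene. The mir-3535 hairpin (chr1:86351981-86352127, minus strand) spans the snoRNA gene Gm24148 (chr1:86352008-86352087) inside Ncl, which encodes nucleolin. Position 86352087 is the first base of both the snoRNA and the mature miR-3535 on that strand. The letters UGAUGA (the core of the C box of C/D snoRNAs) and CUGA (their D box), searched on the strand as listed, are in capitals in these mature sequences, chr1:86352062-86352087 (minus strand) and chr10:128085291-128085312 (plus strand).
miR-3535: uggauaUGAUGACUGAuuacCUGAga
miR-677-5p: uucagUGAUGAuuagcuuCUGA
Of 1674 different mature sequences in the RefSeq table, 12 (0.717%) held UGAUGA and 5 (0.299%) held both motifs. A match describes letters only. Over 10 mice, log2 mir-3535 correlated with the log2 share of the ensembl snoRNA row with r = 0.69 (permutation p = 0.0533, adjusted over 2 hairpins 0.107; rho = 0.21, p = 0.561). The relation rested on mouse 02A6: r was -0.04 without it and -0.21 without the 2 mice farthest from the median snoRNA share. For mir-148a r was -0.03 (permutation p = 0.944; rho = -0.36, p = 0.312). These 2 hairpins were chosen after their values were seen.

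**Figure D2:**
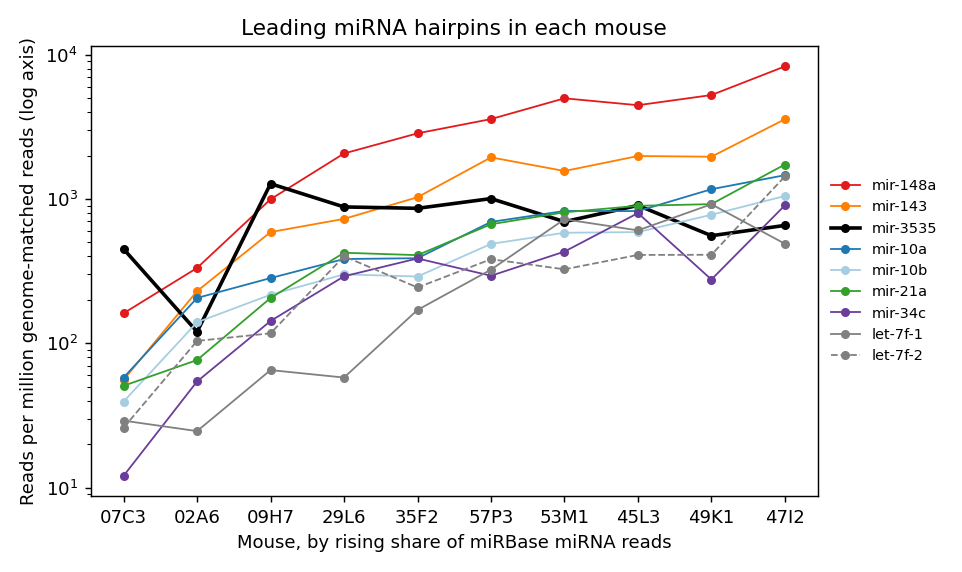
RPM (log axis) of 9 leading miRNA hairpins in each of the 10 mice, ordered by the share of miRBase miRNA reads; lines join the values of 1 hairpin. mir-148a rises from 162 to 8301 RPM across the mice, while mir-3535 (thick line) stays between 120 and 1277 RPM, and let-7f-1 and let-7f-2 cross.

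Most hairpins whose RefSeq records share an identical mature sequence varied more one by one than in sum. In the 6 such groups with a summed mean of at least 100 RPM this held for 13 of 14 hairpins; the exception was mir-7a-2, whose CV of class share was no higher than that of mir-7a-1 and mir-7a-2 together (33.6% for both). let-7f-1 held 1.96% of miRNA reads with a CV of 60.4% between mice and let-7f-2 2.47% with a CV of 38.3%, but their sum held 4.42% with a CV of 20.6%. Their log2 ratio (let-7f-1 over let-7f-2) ran from -2.79 in mouse 29L6 to 1.16 in mouse 49K1, and their within-class shares had r = -0.71. mir-26a-1 and mir-26a-2, which also share a mature sequence, had CVs of 45.6% and 55.7%, and 18.9% in sum, with r = -0.67 (n = 10 mice for both). The gap was small for mir-30c-1 and mir-30c-2 (41.2% and 39.6%, 34.5% in sum) and for let-7a-1 (48.8%, against 44.9% in sum with let-7c-1 and let-7c-2). Within-class r was 0.35 for let-7a-1 and let-7a-2 and -0.07 for let-7c-1 and let-7c-2. let-7a-2, for which RefSeq lists 1 mature arm, was not in the group of let-7a-1, so by these records they are not a pair of copies. Which arm the group of let-7a-1 shares is not given here. The groups named here were chosen after their values were seen. Reads from such copies cannot be told apart by sequence where they cover only the shared arm, so the level of a single copy is uncertain.

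The hairpins that mark cell types were compared with the tissue label. Of 5 spermatogenic hairpins, 3 had reads and mir-449b and mir-449c had none in any mouse; mir-34c, a hairpin of late germ cells, led with 359 RPM ± 293 (12.1 to 904), mir-34b had 22.1 ± 10.8 and mir-449a 8.28 ± 8.27. Of 18 hairpins of the testis X-chromosome cluster, 16 had reads, led by mir-881 (246 ± 171), mir-465c (32.8 ± 21.4), mir-465b (28.5 ± 18.9) and mir-871 (19.5 ± 12.4), and mir-201 and mir-547 had none. All 5 epithelial hairpins had reads in every mouse, with mir-200c at 238 RPM ± 198, mir-200a at 213 ± 170, mir-200b at 151 ± 126 and mir-141 at 24.7 ± 25.1.

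Summed, the spermatogenic list held 1.12% to 3.98% of a mouse's miRNA reads, the testis X-cluster list 1.67% to 5.25%, the epithelial list 2.50% to 4.84% and the muscle list 4.09% to 13.7%. The muscle list was led by mir-143 (1366 RPM), followed by mir-145 at 122 RPM ± 111, mir-1 at 80.3 ± 74.2 and mir-133a at 15.1 ± 15.7; the skeletal muscle hairpin mir-206 had reads in 1 mouse. Blood cell hairpins held 0.109% to 0.369%, led by mir-451a (10.6 RPM ± 12.7), mir-223 (8.28 ± 5.45), mir-142 (7.81 ± 7.12) and mir-486 (1.96 ± 1.42). The liver hairpin mir-122 reached at most 2.50 RPM, and the neuronal hairpins mir-9 and mir-124 had 5.29 RPM ± 5.13 and 0.124 ± 0.203. Germ-cell hairpins were thus read beside those of the epithelial and muscle lists. The paper reports high sperm purity, judged by methylation of imprinting control regions and by absent ribosomal RNA peaks. In bulk RNA, fewer cells of a type and less RNA per cell cannot be told apart, and the part of each cell type in the miRNA reads was not tested.

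tRNA reads were spread over 45 to 50 isoacceptors per mouse, but few carried most of them. tRNA-Gly-GCC was first in 9 of 10 mice, at 48687 RPM ± 28881 (lowest 11162 in mouse 09H7, median 45729, highest 92246 in mouse 45L3), and held 30.1% to 58.5% of tRNA reads. tRNA-Glu-CTC, at 17400 RPM ± 9784 (lowest 6002, median 15370, highest 37948), led in mouse 07C3 with 46.1% of tRNA reads and held 9.88% in the mouse where its share was lowest. The 8 next isoacceptors were tRNA-Val-CAC (6686 RPM ± 3750), tRNA-Lys-CTT (6501 ± 3087), tRNA-Gly-CCC (5607 ± 3358), tRNA-Glu-TTC (2176 ± 1129), tRNA-Val-AAC (2025 ± 1562), tRNA-Asp-GTC (1645 ± 832), tRNA-His-GTG (1210 ± 494) and tRNA-Gln-CTG (1009 ± 676). 8 isoacceptors were among the 10 most abundant of every mouse. tRNA-Gly-CCC held between 1.11% and 14.2% of tRNA reads.

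By amino acid, glycine tRNAs held 53.4% ± 10.5 of tRNA reads and glutamate tRNAs 21.8% ± 11.6. tRNA-Leu-AAG (108 RPM ± 36.8, CV 34.2%) and tRNA-Gly-TCC (145 ± 57.4, CV 39.6%) varied least between mice among isoacceptors of at least 100 RPM, and tRNA-Val-AAC (CV 77.1%) and tRNA-Cys-GCA (179 ± 128, CV 71.7%) varied most.

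Reads came mostly from the 5′ end of tRNAs. The rows for 5′ ends held 85.9% ± 2.62 of tRNA reads (82.4% in mouse 02A6 to 91.2% in mouse 07C3), those for 3′ ends 0.347% ± 0.0985 and those for CCA ends, the 3′ terminus that is added after transcription, 0.330% ± 0.201 (330 to 4404 reads), and 13.4% ± 2.47 lay in none of them. These shares cover genome-matched reads only. CCA end reads that did not match the genome had a median of 8129 per mouse (1845 to 11749), against 1570 that matched. The CCA share thus leaves out most of the CCA end reads. The isoacceptor names of the end rows do not line up with those of the totals. Within glycine, Gly-CCC held 49.3% ± 11.1 of the 5′ reads and Gly-GCC 6.66% ± 0.779, the reverse of their order in the totals, and within valine, Val-AAC held 8.10% ± 3.02 and Val-CAC 1.34% ± 0.612, again the reverse. Glycine leads on average in both sets of rows, but which isoacceptor of glycine or of valine leads depends on the set, and the isoacceptor levels above hold for the totals. The 5′ share was therefore compared by amino acid. Of the 10 most abundant amino acids, 9 (90%) differed from the tRNA total of the same mouse (exact two-sided sign-flip permutation test, Benjamini-Hochberg over 10). That total includes the amino acid compared. Glycine (53.4% of tRNA reads) and glutamate (21.8%) make up most of it, so the others are compared mainly with these. Glycine (90.6% ± 2.63, above the total in 10 of 10 mice, exact permutation, adjusted p = 0.00244), glutamate (90.6% ± 2.31, 10 of 10 mice, exact permutation, adjusted p = 0.00244) and valine (88.9% ± 3.23, 9 of 10 mice, exact permutation, adjusted p = 0.00434) lay above it, by 4.64, 4.67 and 3.00 percentage points. Lysine, at 85.9% ± 3.32, differed from the total by -0.0839 points ± 3.17 (exact permutation, adjusted p = 0.920).

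Aspartate, histidine, glutamine, selenocysteine, methionine and leucine tRNAs lay below the total in all 10 mice (exact permutation, adjusted p = 0.00244 for each, from the smallest p that the sign flips of 10 mice can give, 0.00195). The 5′ rows held 7.42% ± 3.89 of methionine reads and 11.0% ± 4.57 of aspartate reads. Glutamine stood at 36.8% ± 8.73, leucine at 58.7% ± 7.92, selenocysteine at 59.1% ± 7.59 and histidine at 62.6% ± 12.8, the last from 40.7% in mouse 57P3 to 89.6% in mouse 07C3. Each of these 6 amino acids held a small part of tRNA reads, from 1.81% for aspartate to 0.429% for leucine. Isoleucine and tyrosine, which are outside the 10, had more reads in their end rows than in their isoacceptor rows in 9 mice each, and phenylalanine in 1, so no share is given for them. End rows of an amino acid are thus not always part of its isoacceptor rows, and the shares of the 10 take them to be.

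Among genome-matched reads, the rare 3′ and CCA rows had another make-up than the 5′ rows. The make-up of the CCA end reads that did not match the genome was not examined. Glycine and glutamate held 56.2% ± 10.8 and 23.1% ± 12.3 of 5′ reads. The 3′ rows were led by aspartate (27.2% ± 7.71) and asparagine (13.1% ± 4.59), with glycine at 7.91% ± 3.48. The CCA rows were led by glutamine (23.0% ± 10.5), isoleucine (16.1% ± 4.47) and lysine (11.2% ± 2.94). The 3′ rows rest on 608 to 3558 reads per mouse. In mouse 07C3, with 330 CCA reads, valine held 45.5% of them, and in mouse 09H7 glutamate held 39.4%.

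**Figure D3:**
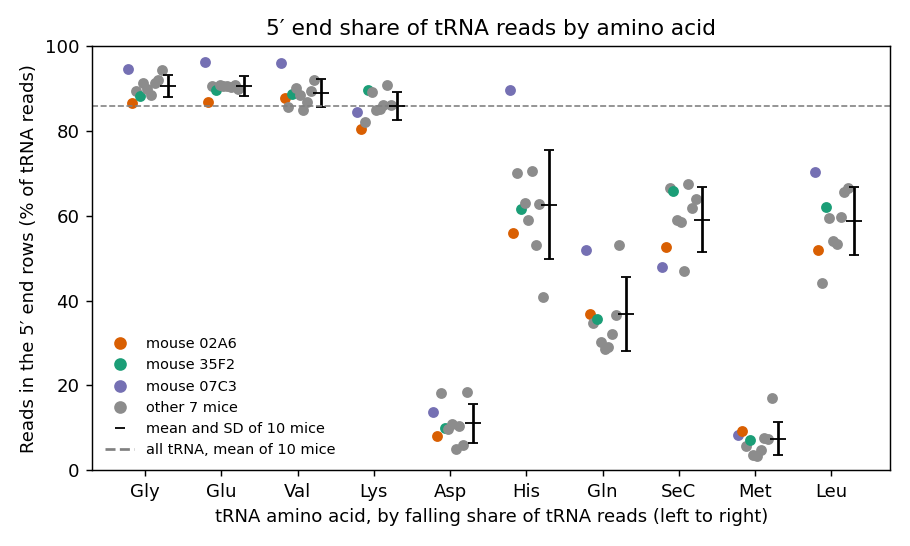
Reads in the 5′ end rows as a percentage of the reads of each of the 10 most abundant tRNA amino acids (SeC, selenocysteine), by falling share of tRNA reads; points are the 10 mice, bars the mean and SD, and the dashed line the mean over all tRNA (85.9%). Glycine, glutamate and valine lie above the line on average, and aspartate (11.0%) and methionine (7.42%) near the bottom in every mouse.

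piRNA reads were spread over many sequences, of which few had reads in every mouse. Between 11053 and 58078 piRNAs per mouse had reads and 216600 had reads in any of the 10 mice. 957 of these (0.442%) had reads in all 10 mice and held 30.9% of the listed piRNA reads, while 164490 (75.9%) had reads in 1 mouse and held 8.46%. These counts depend on depth, since a rare piRNA can be missed by sampling. The piRNA class total ran from 97888 reads in mouse 07C3 to 1233308 in mouse 47I2. The listed piRNAs accounted for 59.5% to 73.5% of the piRNA class total of a mouse, so levels of single piRNAs cover that part only.

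The most abundant was piR-mmu-3744158, at 1335 RPM ± 1189 (lowest 114, median 1111, highest 3464), which ranked first in 6 mice with at most 3.18% of listed piRNA reads. piR-mmu-2819708 had 974 RPM ± 1223 and ranked first in mice 53M1 and 47I2, but had no read in mouse 07C3 and 4197 RPM in mouse 47I2. piR-mmu-9033384 (398 ± 468) had no read in mouse 02A6. The others of the 10 most abundant were piR-mmu-5619027 (366 ± 284), piR-mmu-6814978 (362 ± 370), piR-mmu-1938415 (357 ± 329), piR-mmu-9033385 (351 ± 283), piR-mmu-11574720 (350 ± 269), piR-mmu-1194548 (339 ± 230) and piR-mmu-9622969 (334 ± 358). No piRNA was among the 20 most abundant of every mouse. piR-mmu-45829899 led in mouse 07C3 and piR-mmu-6814978 in mouse 02A6, the latter at 1344 RPM there.

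The widest spread was that of piRNAs with nearly all of their reads in 1 mouse. piR-mmu-14081514 had 1074 RPM in mouse 49K1 and no read in the other 9 mice, and piR-mmu-21164977 had 1201 RPM in mouse 47I2 and at most 0.896 RPM elsewhere, with 6 mice at 0. Both reached a mean of 100 RPM only through that 1 mouse, so their wide spread follows from how they passed the filter. piR-mmu-13060756 (190 RPM ± 76.4, CV 40.3%) and piR-mmu-9976943 (142 ± 61.7, CV 43.4%) were the steadiest piRNAs of at least 100 RPM.

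The classes differed in how their reads were concentrated. In tRNA, the first isoacceptor held 48.7% ± 8.32 of reads, the first 10 held 95.9% ± 1.29, and 1 to 3 isoacceptors made up 50% of the reads. In miRNA, the first hairpin held 21.8% ± 4.63 and the first 10 held 60.0% ± 3.84; 6 to 10 hairpins made up 50% and 49 to 59 made up 90%. In piRNA, the first 10 held 9.50% ± 1.34, and it took 281 to 815 piRNAs to reach 50% and 5042 to 13274 to reach 90%. The effective number of members (the exponential of the Shannon entropy, the number of equally abundant members with the same diversity) was 5.89 ± 1.17 for tRNA, 37.3 ± 5.66 for miRNA and 3785 ± 984 for piRNA, and the ranges of the 3 classes over the 10 mice did not overlap. These ranges describe classes with unequal numbers of listed members. Thinned to the reads of the shallowest mouse (10028 miRNA, 175955 tRNA and 58209 piRNA reads), the effective numbers were 37.1 ± 5.49, 5.90 ± 1.16 and 3047 ± 607.

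**Figure D4:**
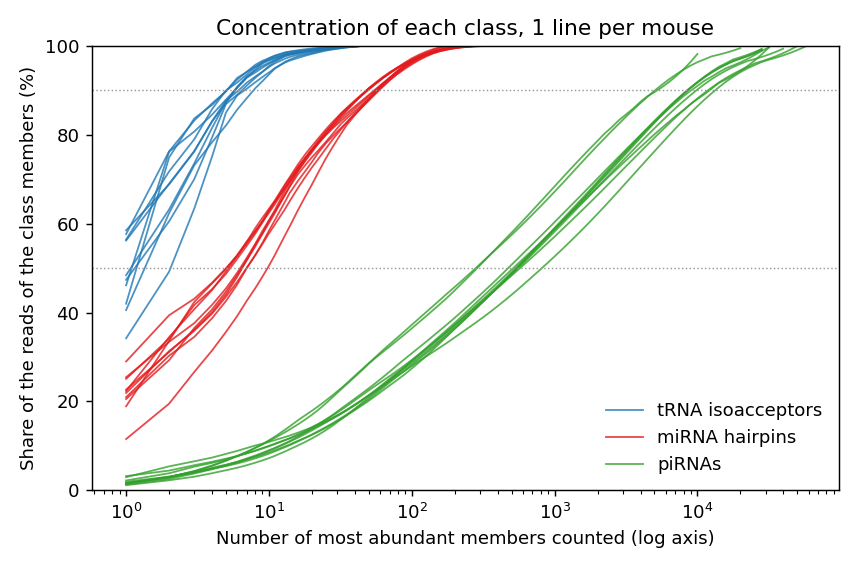
Cumulative share of the reads of a class (%) held by its most abundant members (number on a log axis), with 1 line per mouse and class; dotted lines mark 50% and 90%. tRNA lines reach 50% within 3 isoacceptors, miRNA lines within 10 hairpins and piRNA lines between 281 and 815 piRNAs, and the 2 steepest piRNA lines pass 50% before 300 members.

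The spread between mice was wide. Among members of at least 100 RPM on average, the median CV was 81.2% over 26 hairpins (43.4% to 110%), 55.3% over 21 isoacceptors (34.2% to 77.1%) and 92.1% over 61 piRNAs (40.3% to 316%). A piRNA can reach that mean through a single mouse, as piR-mmu-14081514 (CV 316%) did. The filter thus admits such spreads into the piRNA values, also into those on class shares. The CV expected from counting reads alone is at most 4.27% at these counts; it takes each read as an independent molecule, which amplified reads are not. The hairpins with the lowest CV were mir-3535 (43.4%) and mir-191 (121 RPM ± 75.2, 62.4%), and those with the highest mir-26a-2 (197 ± 216, 110%) and let-7c-2 (121 ± 125, 104%). Expressed as a share of their own class, the median CV was 26.5% for hairpins, 44.0% for isoacceptors and 81.2% for piRNAs. mir-3535 had the highest CV of class share among the hairpins (100%) and mir-30d the lowest (12.1%).

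Members of a class varied together to different degrees. Among the 20 most abundant hairpins, the median pairwise Pearson r of log2(RPM + 1) over the 10 mice was 0.94, with all 190 pairs above 0. It was 0.61 for the 20 most abundant isoacceptors (178 of 190 pairs above 0) and 0.55 for the 20 most abundant piRNAs (173 of 190). On shares within the class the medians were 0.09, 0.21 and -0.06. The members of a class share its total, so these are descriptions and no p is given.

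Some pairs of the 10 leading members kept a high r on within-class shares. mir-10a and mir-10b, which share a seed and lie on chromosomes 11 and 2, had r = 0.97, mir-143 and mir-30a 0.91 and mir-148a and mir-30a 0.90. The printed 5′ arms of mir-10a and mir-10b are near-identical, and whether reads were assigned across this pair was not tested. mir-3535 had r = -0.58 with mir-148a (-0.79 without mouse 02A6) and with mir-143 (-0.59). In tRNA, Glu-CTC and Asp-GTC had r = 0.89, and Gly-CCC had r = -0.77 with Asp-GTC and -0.66 with Glu-CTC. piRNAs fell into opposed pairs: piR-mmu-6814978 had r = 0.95 with piR-mmu-1938415 and -0.91 with piR-mmu-9033384, the first 2 being highest in mouse 02A6 and the third without a read there. Without mouse 02A6 these r were 0.92 and -0.90, that of mir-10a and mir-10b 0.88, that of Glu-CTC and Asp-GTC 0.86, and that of Gly-CCC and Asp-GTC -0.65. Between mice, the ranks of the 100 most abundant piRNAs had a median Spearman rho of 0.39 over 45 pairs of mice (-0.07 to 0.67). It was 0.83 (0.67 to 0.94) for the 100 most abundant hairpins and 0.95 (0.85 to 0.99) for the 51 isoacceptors. These are correlations across members, which are not independent replicates. The sets are also unlike: the isoacceptors are all those listed, with means from 48687 down to 0.0163 RPM, and the piRNAs the top 100 of 216600. The medians are therefore not a like comparison of the classes.

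14 class rows held at least 1% of reads on average, and their log2 shares were correlated over the 10 mice in all 91 pairs. Shares have a common total, so a rise in one lowers the others. 3 of 91 pairs (3.3%) passed the permutation test with 100000 resamples after Benjamini-Hochberg adjustment as positive relations and 0 of 91 (0%) as negative ones, with 11 and 9 pairs at an unadjusted p under 0.05. The ensembl snoRNA and processed_transcript rows had r = 0.95 (p = 0.000170, adjusted 0.0155; rho = 0.85, adjusted p = 0.158), lincRNA and Rfam-mRNA r = 0.97 (p = 0.000790, adjusted 0.0243; rho = 0.84, adjusted p = 0.158), and Rfam-DNA and Rfam-rRNA r = 0.90 (p = 0.000800, adjusted 0.0243; rho = 0.67, adjusted p = 0.351). Without the 2 mice farthest from the median of the first row, r was 0.80, 0.95 and 0.73. Without mouse 02A6 r was 0.88, 0.91 and 0.80 and none of the 3 passed (exact permutation over 9 mice, adjusted p = 0.0947, 0.0997 and 0.0997). The count of pairs that passed depended on single mice: it was 7 without mouse 07C3, 1 without 35F2, 1 without 02A6, and 8 with mouse 47I1 in place of 47I2.

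The relation of piRNA and miRBase miRNA depended on which mice were kept. Over 10 mice their r was 0.77 (permutation p = 0.00992, adjusted 0.0903; rho = 0.71, adjusted p = 0.278), which did not pass, and without the 2 mice farthest from the median piRNA share it was 0.27. Without mouse 02A6, which combined a piRNA share of 12.2% with a miRBase miRNA share of 0.294%, r was 0.96 (exact permutation over 9 mice, adjusted p = 0.0371), the only pair of 91 that passed. Mouse 02A6 was left out after its values were seen, and it departs from this relation. The test over 9 mice is therefore no support for a relation over the 10. The snoRNA row had r = -0.61 with piRNA (permutation p = 0.0804, adjusted 0.250) and -0.66 with tRNA (permutation p = 0.0396, adjusted 0.180). The miRNA rows of the 2 databases did not move as one: with the snoRNA row, ensembl miRNA had r = 0.79 (adjusted permutation p = 0.162; 0.23 without mouse 02A6) and miRBase miRNA -0.07 (adjusted permutation p = 0.884; -0.78 without mouse 02A6).

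**Figure D5:**
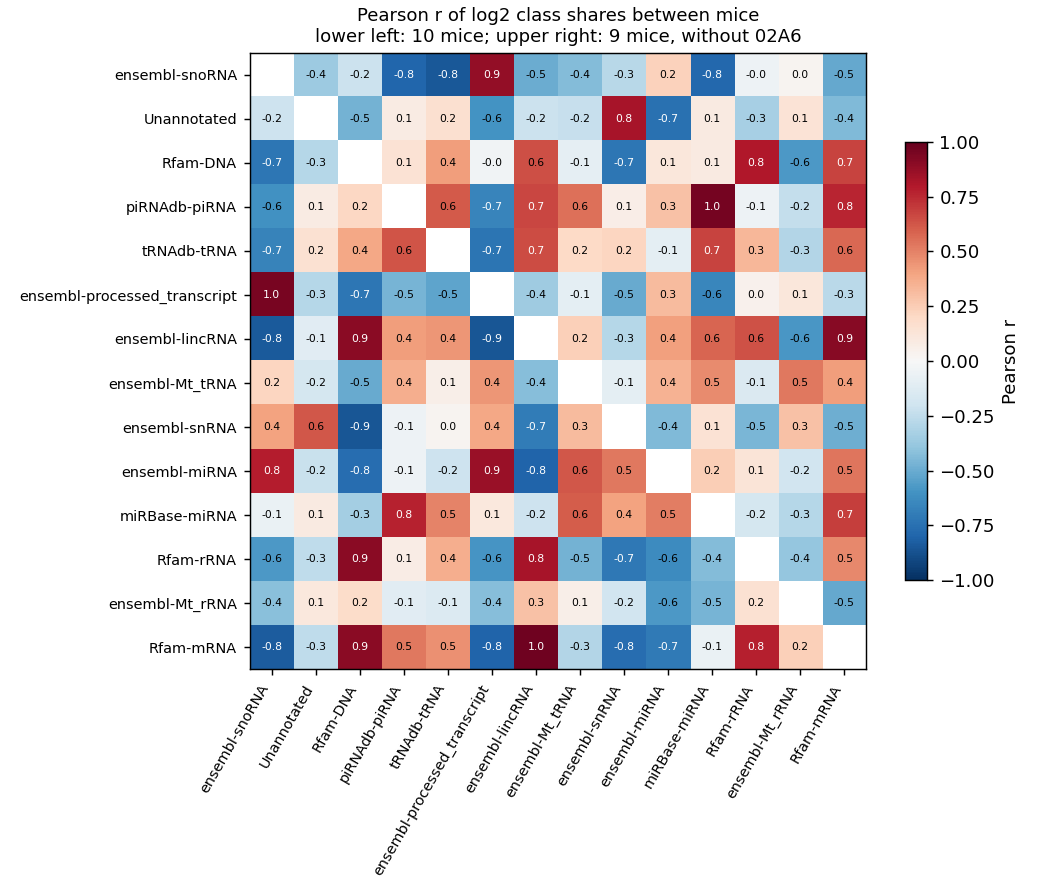
Pearson r of log2 shares between mice for 14 class rows, red above 0 and blue below; the lower left triangle shows all 10 mice and the upper right triangle 9 mice, without 02A6. Leaving out 02A6 takes r of Rfam-DNA and ensembl miRNA from -0.76 to 0.11 and brings piRNA and miRBase miRNA to 0.96.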

How the data were processed

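Small RNA libraries of sperm were analysed from 10 control-diet mice, 1 per litter. Per the study's methods, the authors mapped reads to the mouse genome (mm10) and to piRNA, tRNA, miRNA and rRNA databases with SPORTS 1.0; the deposited values are raw counts of reads per class and per member, separately for reads that do and do not match the genome, with no normalization. Ensembl, Rfam and unannotated rows are totals only. Genome-matched rows were used. Members and lists were chosen with earlier results of these data known.

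Counts were divided by the sum of the genome-matched class totals of the mouse, leaving out tRNA end rows, which repeat tRNA reads; the study's own total was an alternative because it is lower than the class totals in mouse 35F2. tRNA ends were summed from their members. Tests were the exact sign-flip permutation test within mice (all sign flips of 10 mice) and, for correlations, 100000 permutations (all permutations for 9 mice), with Benjamini-Hochberg adjustment at 0.05, in Python 3.11.15 with numpy 2.4.6 and pandas 2.3.3, tested on simulated data. The named members are the 10 most abundant of each class, the 2 with the highest and the 2 with the lowest CV among those of at least 100 RPM, class pairs past the threshold and at most 4 hairpins of each marker list; other members named were chosen after their values were seen. The 5′ share was to be tested by isoacceptor and was tested by amino acid, since the names of end rows and totals differ. Errors are SDs between mice; no counting intervals are given, since values are summarised over mice and amplified reads are not independent molecules. Mature sequences and hairpin positions are from RefSeq (GRCm38.p6) and host genes from GENCODE M21, both on the assembly of mm10.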

Additional observations from a re-analysis of the deposited data

Results flagged for a closer look

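Of 26 measures tested for a single distant mouse (Dixon's criterion), 7 had one. Chance gives about 1 in 20 where values are normally spread and measures are independent. Class rows share a total, so 7 of 26 cannot be set against that rate. Mouse 02A6 lay far above the other 9 mice in Rfam-DNA (27.4%, others 5.69% to 11.6%), lincRNA (16.1%, others 2.27% to 4.29%), Rfam-rRNA (2.89%, others 0.816% to 1.86%) and Rfam-mRNA (2.71%, others 0.522% to 0.984%). Mouse 35F2 lay far above the others in snRNA (9.07%, others 0.605% to 2.81%). Mouse 47I2, whose label and study table disagree, had 4197 RPM of piR-mmu-2819708 (others 0 to 1246) and 1625 RPM of piR-mmu-9033384 (others 0 to 559). Among reads that did not match the genome, which no comparison above used, the piRNA row held a median of 592190 reads per mouse (226196 to 1162724), the tRNA CCA end row 8129 (1845 to 11749) and the miRBase miRNA row 24 (16 to 60), all above the 3 reads that a count of 0 allows.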

How the results depend on the processing

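42 results were recomputed under up to 21 settings. 360 of 381 values stayed within 1 SD of the value reported (counts within 1.5 times) and none reversed. Where that SD is a wide one between mice, a value can shift a good deal and still be counted as kept. Some correlations described above, such as that of mir-3535 with the snoRNA row, changed sign without mouse 02A6. The cause of the other 21 values was not tested unless the setting itself gives it. The count of correlated class rows (3 of 91) moved most: 8 with 47I1 in place of 47I2, 7 without mouse 07C3, 1 without 35F2, 1 without 02A6, 0 without 02A6, 35F2 and 07C3 together, 8 on centred log-ratios and 0 by Spearman (12 at an unadjusted p under 0.05). Neighbouring classes that differed went from 0 to 2 without 02A6, where the classes were ranked again and tRNA and miRNA became neighbours. With the miRBase row alone miRNA was 1.51%, and with the ensembl row alone rRNA was 0.634%. piRNAs with at least 10 reads over the mice gave 5084 members for 90% of reads and an effective number of 2441. Pooled over the mice, piRNA had 7.07% in its first 10, 937 and 21510 members for 50% and 90%, and an effective number of 8157, and tRNA 1 isoacceptor for 50%. Over the 20 most abundant members of a class, where the median hairpin CV was 80.4%, the geometric CV was 154% for hairpins and 123% for piRNAs, and the hairpin CV without the 3 mice was 58.5%. Merging hairpins of 1 mature sequence left 44.5 for 90% of reads. The settings without 02A6, without the 3 mice, with merged hairpins and without hairpins over snoRNA genes were chosen after seeing the data. No paired analysis was possible because no groups of mice were compared; the sign-flip tests compare classes or amino acids within a mouse. The low read totals of mouse 07C3 (10228 miRNA and 97888 piRNA reads) limit its rare members most, and listed members cover only part of the piRNA class.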

Other observations

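The deposited files carry a running number, whose meaning the labels do not give; among the 10 mice it runs from 1 to 34. The log2 share of miRBase miRNA rose with it (r = 0.81, permutation p = 0.00401, adjusted over 14 class rows 0.0561; rho = 0.84, adjusted p = 0.0515; r = 0.91 without the 2 mice farthest from the median number) and that of Mt_rRNA fell (r = -0.79, permutation p = 0.00821, adjusted 0.0575; rho = -0.79, adjusted p = 0.0608; r = -0.57 without the 2 farthest). 0 of 14 rows (0%) passed after Benjamini-Hochberg adjustment, and 3 had an unadjusted permutation p under 0.05, the third being piRNA (r = 0.66, permutation p = 0.0248, adjusted 0.116). In the CTPR mice of the study table (9 mice, numbers 4 to 33) the same rows had r = 0.65 (exact permutation, adjusted over 9 relations p = 0.132), -0.83 (exact permutation, adjusted p = 0.0453; rho = -0.85, adjusted p = 0.0547, which does not pass) and 0.69 (exact permutation, adjusted p = 0.132) for miRBase miRNA, Mt_rRNA and piRNA. In PRCT mice (9) they had r = 0.15, -0.10 and 0.26 and in PRPR mice (10) -0.36, -0.27 and -0.29, with adjusted p of 0.630 or more by the exact permutation test for 9 mice and 100000 permutations for 10. Whether the groups differ in these relations was not tested.

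Among reads that did not match the genome, mouse 02A6 also had the largest Rfam-mRNA row, at 14.6% of cleaned reads against a median of 2.68% over the 10 mice, and the largest Rfam-DNA row, at 7.21% against a median of 2.56%.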
